A study of Mus musculus with 5 samples.

Results

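Smooth muscle contractile genes are described here across 5 RNA-seq libraries of inflamed mouse colon. The set held 33 genes out of 55471 genes in the tables. They were chosen by symbol for their known place in the contractile apparatus of smooth muscle, with earlier results of these data known. Of these, 32 passed the filter on low counts and were tested among 12024 genes. The muscarinic receptor gene Chrm3 did not pass, with 8 and 2 counts in vehicle and 1, 3 and 7 counts in propyzamide. The integrin gene Itga8 passed through propyzamide libraries alone, so its difference is partly set by the filter, whereas the other 31 reached the filter's level in both vehicle libraries. All libraries came from male C57BL/6 mice, 11 weeks old, whose colon was collected 3 days after colitis was set off with the hapten TNBS (trinitrobenzene sulfonic acid). Vehicle was given in 2 of them and propyzamide, a microtubule-blocking herbicide, in 3. The groups therefore share TNBS, and colon without TNBS was not analysed here. The dose, the segment of colon and the wall layers in each piece went unstated in the sources used here. Nothing in the labels says that each library is a separate animal, so p-values rest on the spread among these libraries, which may be technical.

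Smooth muscle of the gut wall contracts when calcium enters through voltage-gated channels or leaves internal stores and, with calmodulin, activates myosin light-chain kinase. The kinase phosphorylates the regulatory light chain, myosin heavy chain then pulls on actin, and a phosphatase reverses the step. Actin filaments are tied to dense bodies and to plaques at the membrane by filamin, desmin and LIM-domain proteins, so that force passes to the neighbouring cell. Acetylcholine from enteric nerves acts through muscarinic receptors on these cells. Many of the contractile genes are driven by serum response factor with its partner myocardin, which bind a motif called the CArG box.

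The libraries held 1573700 and 2258237 estimated counts in vehicle and 1882235 to 2706885 in propyzamide, so 1 count equals 0.340 to 0.609 CPM (counts scaled to a common library size by the TMM method). Loci resembling ribosomal RNA took 26.3% to 43.6% of the counts and mitochondrial genes 9.998% to 21.6%. The scaling factor of vehicle replicate 1 was 1.61, against 0.80 to 1.10 in the other 4 libraries. Background, read from olfactory and vomeronasal receptor genes, took 9.60% and 7.35% of the remaining counts in vehicle, against 0.477%, 4.89% and 1.81% in propyzamide. Vehicle and propyzamide libraries carried different second index sequences, so index and treatment cannot be told apart.

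The CArG box was searched by name in RefSeq promoters of build GRCm38.p6, each running from 250 bases before to 50 bases after a gene's start, on both strands. Of the 33 members 27 matched an entry, and Actg2, Myh11, Myocd, Rbpms, Tagln and Tgfb1i1 did not. A box stood in 4 of the 27 members, which is 14.8%, and in 488 of all 27025 genes, which is 1.81%. Counted over promoters, since a gene can have several, these were 5 of 39 (12.8%) and 535 of 32851 (1.63%). These 4 windows of 130 bases are shown because they hold the motif, in capitals, by which smooth muscle genes are classically recognised. They are chr2:156775243-156775372 (+) for Myl9, chr9:79977928-79978057 (-) for Filip1, chr14:34588647-34588776 (-) for Ldb3 and chrX:82948712-82948841 (+) for Dmd.
Myl9: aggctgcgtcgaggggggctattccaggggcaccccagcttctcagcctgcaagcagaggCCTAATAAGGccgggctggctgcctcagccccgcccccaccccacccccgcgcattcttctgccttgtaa
Filip1: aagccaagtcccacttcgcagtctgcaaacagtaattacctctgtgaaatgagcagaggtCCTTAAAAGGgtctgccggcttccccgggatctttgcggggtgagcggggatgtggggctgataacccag
Ldb3: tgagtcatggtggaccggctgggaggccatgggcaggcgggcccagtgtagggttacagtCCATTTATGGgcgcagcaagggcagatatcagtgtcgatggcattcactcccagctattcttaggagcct
Dmd: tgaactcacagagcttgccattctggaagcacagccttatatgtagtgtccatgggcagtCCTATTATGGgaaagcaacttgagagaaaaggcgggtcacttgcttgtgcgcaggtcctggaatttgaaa
The box began 161 bases before the listed start in Myl9, 115 in Filip1, 98 in Dmd and 35 in Ldb3. The start listed for Filip1 is an internal one, 34969 bases inside the annotated gene, whereas those of Myl9, Ldb3 and Dmd lie 44, 1 and 0 bases from the annotated 5′ end of the gene. A match is a run of letters in this window and was not tested as a binding site. The 4 genes did not form a group by response: their log2 fold changes between propyzamide and vehicle were 1.98, 1.43, 0.54 and 1.19 for Myl9, Filip1, Ldb3 and Dmd.

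Levels of most contractile genes were higher in all 3 propyzamide libraries than in either vehicle library, but no member passed the test across all genes. The summed level of the 33 genes was 1072 and 5487 CPM in vehicle and 8479, 13795 and 14368 CPM in propyzamide. As a share of all counts it was 0.165% (exact 95% interval 0.158% to 0.171%) and 0.428% (0.420% to 0.437%) in vehicle, against 0.922% (0.910% to 0.933%), 1.10% (1.09% to 1.11%) and 1.25% (1.24% to 1.27%) in propyzamide. These intervals cover counting error only. The vehicle libraries thus differed from each other by a factor of 5.12 in summed CPM, more than the 1.55-fold to 2.62-fold distance from vehicle replicate 2 to a propyzamide library. Per total count, without TMM scaling, the factor was 2.60 and that distance 2.15-fold to 2.93-fold, so the order of these gaps rests on the scaling. In bulk tissue, fewer muscle cells and less RNA per muscle cell cannot be told apart.

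Of the 32 tested members, 31 had a positive log2 fold change of propyzamide over vehicle, against 49.1% of all genes tested. The median over the members was 1.45 on the log2 scale, and over all genes tested it was -0.018. A log2 fold change of at least 1 was reached by 24 members (75%), against 10.7% of all genes. Itga8, which passed the filter through propyzamide libraries alone, is counted in the 31, the median and the 24. The groups did not overlap, with propyzamide higher, in 19 members (59.4%), against 16.7% of all genes. In TPM this held for 20 members, with Lmod1, Ppp1r12b, Jph2 and Chrm2 added and Lpp, Pdlim7 and Dmd lost. The share of all genes was not computed in TPM, and the 16.7% refers to CPM only. With edgeR's quasi-likelihood test and Benjamini-Hochberg adjustment over all genes, 0 of 32 members passed 0.05, against 1.90% of all genes in either direction. At an unadjusted p under 0.05, 21 members (65.6%) were higher in propyzamide, against 8.52% of all genes. DESeq2 called 8 members higher (25%), against 2.16% of all genes. They were Acta2, Actg2, Cnn1, Des, Synm, Synpo2, Flna and Pdlim3.

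The count of calls changed with the library left out, and also with the method and the filter, as listed in the last section. Without vehicle replicate 2, edgeR called 13 of 33 members higher, against 0.259% of 13522 genes, and the median log2 fold change was 2.69. This fit takes the lone vehicle library to vary like the propyzamide libraries. Without vehicle replicate 1, 0 members passed, 7 had an unadjusted p under 0.05, 27 of 32 were positive and the median was 0.95. Without propyzamide replicate 1, 2 of 32 members passed (6.25%), Synm and Synpo2, both higher, against 1.92% of 11173 genes. The smallest adjusted p with all 5 libraries was 0.0504, for Synm.

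**Figure D1:**
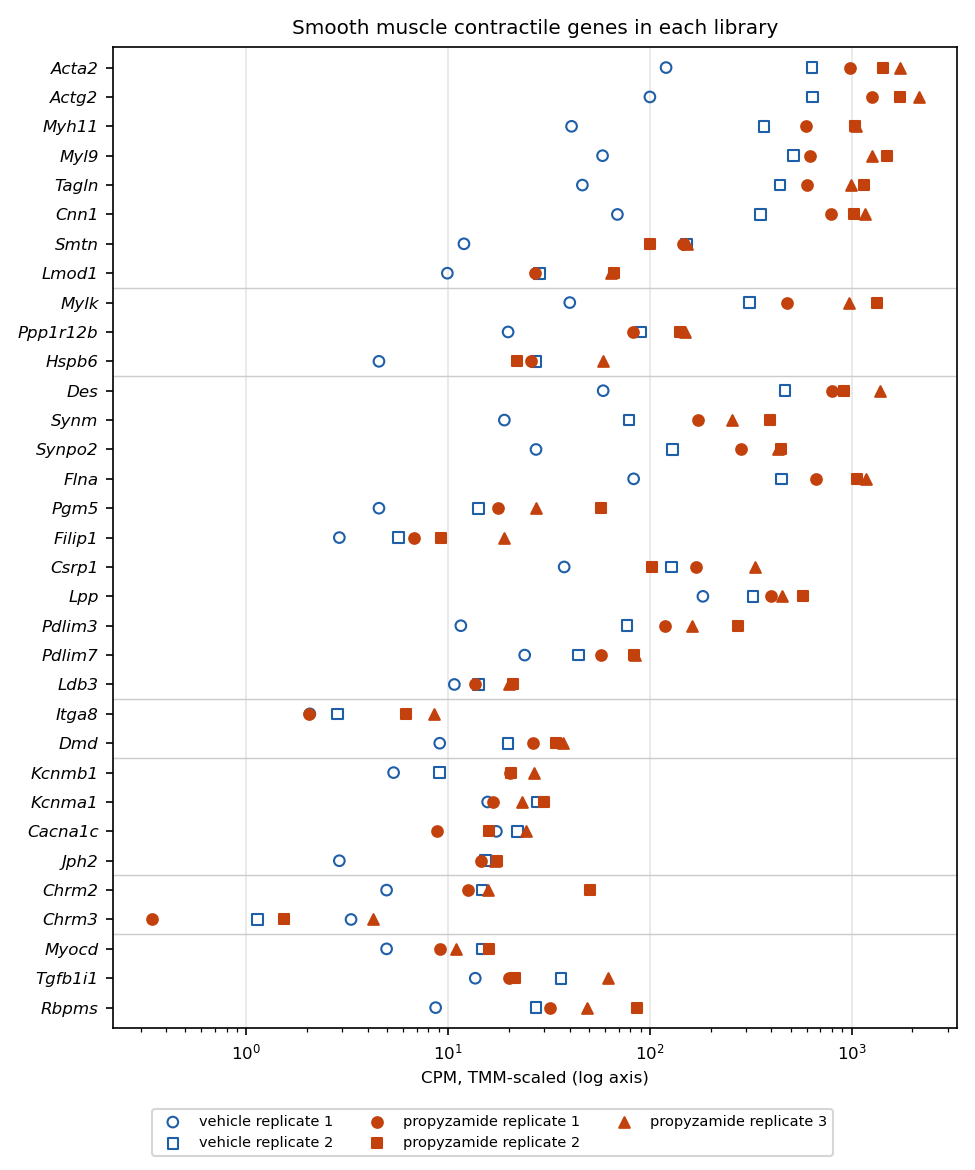
Level of each member in each library, in TMM-scaled CPM on a log axis, with members grouped by role; points are the 2 vehicle and 3 propyzamide libraries. On this scale vehicle replicate 1 was the lowest library in 30 of the 32 tested members, against 23 per total count and 23 in TPM. The propyzamide points lay above both vehicle points in 19.

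Per length of transcript, the set was led by the actin Actg2. Its TPM, a share of transcripts corrected for length, was 291 ± 204 (SD, n = 2) in vehicle and 1293 ± 145 (SD, n = 3) in propyzamide. Myl9 followed at 989.6 ± 259.9 TPM in propyzamide, then Acta2 at 625 ± 78.5, Tagln at 569 ± 91.9, Cnn1 at 469 ± 75.9 and Des at 311 ± 58.6 TPM (SD, n = 3). These 6 genes stood in this order in the means of both groups. In propyzamide the intervals of 1 SD around the means overlapped for Actg2 and Myl9, for Acta2 and Tagln, and for Tagln and Cnn1, whereas those of Myl9 and Acta2 and of Cnn1 and Des did not. In vehicle the intervals of all these neighbours overlapped. The set ended with Chrm3, at a mean of 0.956 TPM over all libraries.

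Among the genes for actin, myosin and the thin filament, all 8 had positive log2 fold changes, with a median of 1.94 and a range of 0.71 to 2.23, and in 6 the groups did not overlap. These 8 summed to 457 and 3136 CPM in vehicle and 5026, 8041 and 8566 in propyzamide. Actg2, the enteric smooth muscle actin (chr6:83512905-83536265, minus strand, GRCm38), was at 100.1 and 642 CPM in vehicle and 1268, 1738 and 2147 CPM in propyzamide. Its lowest propyzamide library stood 1.98 times above vehicle replicate 2, and the log2 fold change was 2.21 ± 0.69 (SE), adjusted p = 0.113. Acta2, the actin of vascular and visceral smooth muscle (chr19:34241090-34255590, minus strand), was at 120.4 and 637 CPM in vehicle and 976, 1432 and 1734 CPM in propyzamide, a log2 fold change of 1.87 ± 0.64 (SE), adjusted p = 0.148. Both actins had the same order of libraries, with vehicle replicate 1 lowest and propyzamide replicate 3 highest.

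The coding sequences of these actins are close, and 955 of 1134 aligned positions (84.2%) are identical in the GENCODE annotation of GRCm38. Their last 90 coding bases are shown because reads must be told apart there by single bases. The 16 positions that differ are in capitals.
Acta2: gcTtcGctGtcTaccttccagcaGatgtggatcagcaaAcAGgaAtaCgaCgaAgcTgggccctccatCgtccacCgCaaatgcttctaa
Actg2: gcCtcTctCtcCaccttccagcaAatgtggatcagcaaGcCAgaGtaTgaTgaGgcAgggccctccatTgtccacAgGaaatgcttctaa
The authors' tool divides reads among transcripts by probability, so some reads of these genes could have been placed on the other one. Acta2 and Actg2 together held 20.6% and 23.3% of the members' counts in vehicle and 26.5%, 23.0% and 27.0% in propyzamide.

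Myh11, the smooth muscle myosin heavy chain, was at 40.9 and 367 CPM in vehicle and 593, 1036 and 1056 CPM in propyzamide. The groups did not overlap, and the log2 fold change was 2.14 ± 0.73 (SE), adjusted p = 0.146. Myl9, the regulatory light chain that the kinase phosphorylates, was at 58.3 and 514 CPM and 623, 1491 and 1254 CPM, with a log2 fold change of 1.98 ± 0.75 (SE), adjusted p = 0.184. Propyzamide replicate 1 lay only 1.21 times above vehicle replicate 2 for this gene. Tagln, the actin-bundling protein transgelin, was at 46.3 and 441 CPM and 601, 1153 and 988 CPM, a log2 fold change of 1.91 ± 0.73 (SE), adjusted p = 0.191. Cnn1, calponin, which damps the actin-activated ATPase of myosin, was at 69.1 and 355 CPM and 793, 1025 and 1169 CPM. Its lowest propyzamide library stood 2.23 times above the higher vehicle library, and the log2 fold change was 2.23 ± 0.62 (SE), adjusted p = 0.0783.

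Smtn and Lmod1 departed from the other thin-filament genes. Smtn, smoothelin, an actin-binding protein of contractile smooth muscle, was at 11.99 and 152 CPM in vehicle and 145, 100.1 and 153 CPM in propyzamide. Vehicle replicate 2 lay among the propyzamide libraries and vehicle replicate 1 stood alone below them, so the groups overlapped. The log2 fold change of 0.71 ± 0.70 (SE), adjusted p = 0.648, became -0.21 without vehicle replicate 1. Lmod1, leiomodin, which nucleates actin filaments, was at 9.93 and 28.4 CPM and 26.8, 66.7 and 63.9 CPM, and propyzamide replicate 1 fell between the vehicle libraries. Its log2 fold change was 1.47 ± 0.53 (SE), adjusted p = 0.165.

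**Figure D2:**
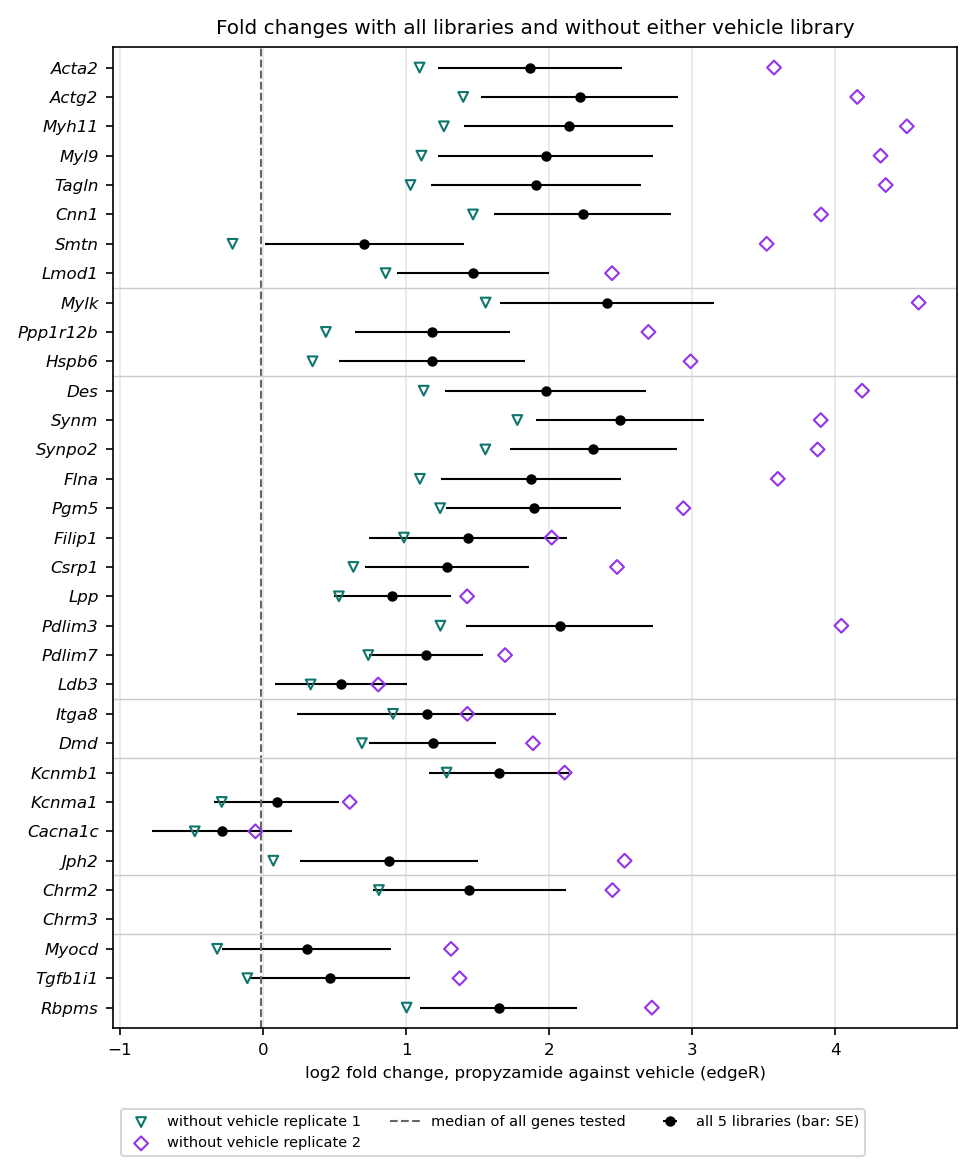
Log2 fold change of propyzamide over vehicle for each tested member, grouped by role, with bars of 1 SE and with the values obtained when 1 vehicle library is left out. Without vehicle replicate 2 the median moved from 1.45 to 2.69 and without vehicle replicate 1 to 0.95.

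The light-chain kinase, a phosphatase subunit and a heat shock protein linked to relaxation were grouped together. These 3 genes had a median log2 fold change of 1.18. Mylk, the light-chain kinase, was at 40.1 and 312 CPM in vehicle and 477, 1339 and 973 CPM in propyzamide. The groups did not overlap, and the log2 fold change of 2.41 ± 0.75 (SE), adjusted p = 0.113, was second only to Synm among the members. Ppp1r12b, a targeting subunit of myosin phosphatase, was at 19.9 and 90.2 CPM and 82.9, 142 and 149 CPM. Hspb6, a small heat shock protein linked to relaxation, was at 4.55 and 27.2 CPM and 25.8, 22.1 and 58.4 CPM. In both, propyzamide replicate 1 lay below vehicle replicate 2, and the log2 fold changes were 1.18 ± 0.54 and 1.18 ± 0.65 (SE), adjusted p = 0.273 and 0.368.

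Mylk is transcribed from more than 1 start, and its values came chiefly from 2 transcripts. The long one, Mylk-201, has 5853 coding bases and encodes the kinase. The short one, Mylk-203, has 480 coding bases that are the end of the long coding sequence, as in telokin, the kinase-free product of this gene in smooth muscle. Mylk-201 was at 5.36 and 23.9 TPM in vehicle and 50.9, 106 and 72.4 TPM in propyzamide. Mylk-203 was at 12.3 and 33.6 TPM in vehicle and 79.1, 169.5 and 131 TPM in propyzamide. Both transcripts had the same order of libraries. The short transcript held 61.6% and 56.2% of the gene's TPM in vehicle and 60.8%, 61.4% and 64.4% in propyzamide, so its share lay between 56.2% and 64.4% in all 5 libraries. Because the short transcript lies within the long one, the division between them is an estimate by the authors' tool.

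All 11 genes for intermediate filaments, dense bodies and adhesion plaques had positive log2 fold changes, with a median of 1.87 and a range of 0.54 to 2.50. In 9 of the 11 the groups did not overlap. Des, desmin, the intermediate filament of muscle, was at 58.7 and 467 CPM in vehicle and 802, 921 and 1375 CPM in propyzamide, a log2 fold change of 1.98 ± 0.70 (SE), adjusted p = 0.161. Synm, synemin, which co-assembles with desmin (chr7:67730160-67759742, minus strand), was at 19.02 and 78.9 CPM and 173, 396 and 255 CPM. Its lowest propyzamide library was 2.19 times above vehicle replicate 2, and it had the highest log2 fold change of the members, 2.50 ± 0.59 (SE), adjusted p = 0.0504. Synpo2, the dense-body protein myopodin (chr3:123076519-123236149, minus strand), was at 27.3 and 129.9 CPM and 283, 447 and 433 CPM. Here too the lowest propyzamide library was 2.18 times above vehicle replicate 2, and the log2 fold change was 2.31 ± 0.58 (SE), adjusted p = 0.0575.

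Flna, filamin A, which crosslinks actin and is also made by many other cells, was at 83.1 and 448 CPM in vehicle and 664, 1068 and 1183 CPM in propyzamide. The groups did not overlap, and the log2 fold change was 1.87 ± 0.63 (SE), adjusted p = 0.141. Pdlim3, a LIM-domain protein that binds alpha-actinin, was at 11.6 and 77.2 CPM and 119, 274 and 163 CPM, a log2 fold change of 2.07 ± 0.65 (SE), adjusted p = 0.117. Pgm5, aciculin, a structural protein of adhesion plaques, was at 4.55 and 14.2 CPM and 17.7, 57.5 and 27.4 CPM, and its propyzamide libraries spread 3.25-fold. In Lpp, a zyxin relative found in focal adhesions, the values were 183 and 324 CPM and 399.7, 573 and 451 CPM. Pdlim7, another LIM-domain protein, was at 23.99 and 44.3 CPM and 57.1, 83.2 and 84.6 CPM. For Pgm5, Lpp and Pdlim7 the groups did not overlap, and the log2 fold changes were 1.89 ± 0.61, 0.90 ± 0.41 and 1.14 ± 0.40 (SE), adjusted p = 0.127, 0.264 and 0.151. In TPM the groups overlapped for Lpp, at 42.8 and 45.96 in vehicle and 67.4, 45.5 and 59.7 in propyzamide, and for Pdlim7, at 27.2 and 19.1 against 35.4, 25.1 and 34.7. Limma on log2(TPM + 1) gave log2 fold changes of 0.35 for Lpp and 0.44 for Pdlim7.

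Csrp1, a LIM protein of actin bundles, overlapped between the groups, at 37.6 and 128 CPM in vehicle and 169.6, 103 and 334 CPM in propyzamide. Propyzamide replicate 2 was the lowest of its group here, below vehicle replicate 2. Ldb3, a PDZ and LIM protein best known from the Z-disc of striated muscle, was at 10.8 and 14.2 CPM and 13.6, 21.04 and 20.1 CPM and had the lowest log2 fold change of its role, 0.54 ± 0.46 (SE), adjusted p = 0.586, which became -0.13 with limma on log2(TPM + 1). Filip1, a filamin-binding protein, ranged from 2.90 to 18.9 CPM over all libraries, with a log2 fold change of 1.43 ± 0.69 (SE), adjusted p = 0.301.

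The membrane anchors were low in level. Dmd, dystrophin, which links actin to the membrane complex, was at 9.10 and 19.9 CPM in vehicle and 26.5, 34.4 and 37.1 CPM in propyzamide, without overlap, a log2 fold change of 1.19 ± 0.44 (SE), adjusted p = 0.178. In TPM its groups overlapped, at 5.32 and 5.66 in vehicle and 5.48, 6.07 and 7.33 in propyzamide, and limma on log2(TPM + 1) gave a log2 fold change of 0.16. Background expected for a gene of its length was 5.58 and 4.85 CPM in vehicle and 0.302, 3.59 and 1.27 CPM in propyzamide. Itga8, the alpha subunit of an integrin of smooth muscle and other mesenchyme, ranged from 2.04 to 8.52 CPM over all libraries. Its background was 2.17 and 1.89 CPM in vehicle, where it stood at 2.07 and 2.84 CPM, so its vehicle level was not separable from background. Its log2 fold change of 1.14 ± 0.91 (SE), adjusted p = 0.558, became -0.94 with limma on log2(TPM + 1).

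The 4 channel and calcium-handling genes had a median log2 fold change of 0.49, with a range of -0.29 to 1.65, and in 1 of them the groups did not overlap. That gene was Kcnmb1, the beta subunit that tunes the large-conductance potassium channel to calcium, at 5.38 and 9.08 CPM in vehicle and 20.4, 20.5 and 26.8 CPM in propyzamide. The lowest propyzamide library was 2.25 times above vehicle replicate 2, the vehicle libraries did not differ beyond counting error (ratio 1.69, exact 95% interval 0.762 to 3.82), and the log2 fold change was 1.65 ± 0.49 (SE), adjusted p = 0.0964. Kcnma1, which forms the pore of that channel, was at 15.7 and 27.8 CPM and 16.7, 29.8 and 23.1 CPM, a log2 fold change of 0.094 ± 0.43 (SE), adjusted p = 0.941. The groups overlapped for the pore gene and not for the beta-subunit gene, and the difference between the 2 genes was not tested.

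Cacna1c, the pore of the L-type calcium channel through which gut muscle admits calcium, was the one tested member with a negative log2 fold change, -0.29 ± 0.49 (SE), adjusted p = 0.819. It was at 17.4 and 22.1 CPM in vehicle and 8.84, 15.9 and 24.4 CPM in propyzamide, and the groups overlapped. Background for its length was 4.92 and 4.28 CPM in vehicle and 0.266, 3.17 and 1.12 CPM in propyzamide. Jph2, junctophilin, which holds calcium stores near the membrane, was at 2.90 and 15.3 CPM and 14.6, 17.5 and 17.05 CPM. Vehicle replicate 2 lay within the range of the propyzamide libraries and vehicle replicate 1 lay apart below. Its log2 fold change was 0.88 ± 0.62 (SE), adjusted p = 0.506.

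The muscarinic receptors were close to the limit of these libraries. Chrm2, the more abundant muscarinic receptor of gut muscle, was at 4.96 and 14.8 CPM in vehicle and 12.6, 50.8 and 15.8 CPM in propyzamide. One library, propyzamide replicate 2, stood apart, and the log2 fold change of 1.44 ± 0.67 (SE), adjusted p = 0.282, was 0.54 without it. Chrm3, the receptor mainly responsible for contraction, was at 3.31 and 1.13 CPM and 0.340, 1.54 and 4.26 CPM. Its higher group's mean was 1.47 times background, so no difference could be detected at this depth.

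The 3 regulators had a median log2 fold change of 0.47, with a range of 0.30 to 1.65. Myocd, myocardin, was at 4.96 and 14.8 CPM in vehicle and 9.18, 15.9 and 10.96 CPM in propyzamide. Its groups overlapped, its log2 fold change was 0.30 ± 0.59 (SE), adjusted p = 0.846, and it was -0.32 without vehicle replicate 1. Tgfb1i1, Hic-5, a LIM-domain coactivator, was at 13.6 and 36.3 CPM and 20.1, 21.6 and 62.1 CPM, with a log2 fold change of 0.47 ± 0.56 (SE), adjusted p = 0.725. Vehicle replicate 2 exceeded 2 of the 3 propyzamide libraries for this gene, and without vehicle replicate 1 the value was -0.11. Rbpms, an RNA-binding protein that controls splicing in smooth muscle, was at 8.69 and 27.2 CPM and 31.9, 86.2 and 48.7 CPM. Its groups did not overlap, and the log2 fold change was 1.65 ± 0.55 (SE), adjusted p = 0.138.

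The 2 vehicle libraries differed from each other in most members. Vehicle replicate 2 was at least 2-fold above replicate 1 in 24 of 32 members (75%), against 10.9% of all genes tested. The median ratio was 3.78 over the members and 1.01 over all genes. In 27 members the exact 95% interval of the ratio, which covers counting error only, lay above 1. The ratio was highest in Smtn at 12.7 (8.63 to 19.3), followed by Tagln at 9.52, Myh11 at 8.97 (7.25 to 11.2) and Myl9 at 8.81. It was lowest in Cacna1c at 1.27, Ldb3 at 1.32 and Itga8 at 1.37. By comparison, the mean of propyzamide stood a median of 2.00 times above vehicle replicate 2, and in 29 of 32 members the ratio between the vehicle libraries was the larger one.

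The size of this gap depended on the scaling, which bears on vehicle replicate 1 most. Per total count the median ratio of vehicle replicate 2 to 1 was 1.92 over the members, while over all genes it was 0.511. Per count outside rRNA-like and mitochondrial genes these medians were 3.33 and 0.886, and in TPM 1.60 and 0.464. The number of members past 2-fold was 16, 23 and 14 on these 3 scales, against 2.17%, 7.93% and 2.43% of all genes. The gap from vehicle replicate 2 to propyzamide moved less, with medians of 2.24, 1.88 and 2.05. The ratio between the vehicle libraries was the larger one in 15, 28 and 13 members. These 3 scales were chosen after the data were seen.

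**Figure D3:**
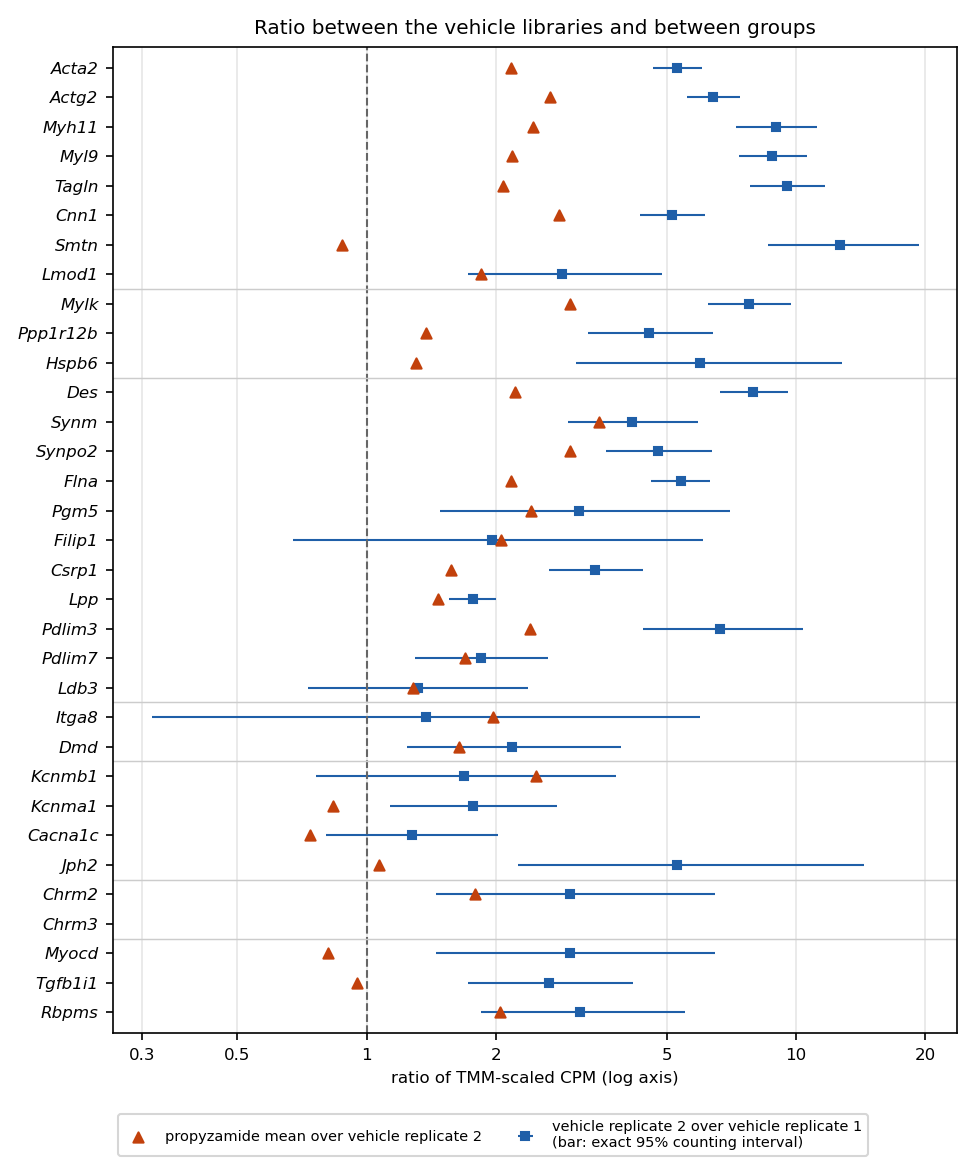
Ratio of vehicle replicate 2 to vehicle replicate 1 for each tested member, with its exact 95% counting interval, and ratio of the propyzamide mean to vehicle replicate 2, both in TMM-scaled CPM on a log axis. The median of the first ratio was 3.78 and of the second 2.00, and Smtn had the widest gap between the vehicle libraries at 12.7.

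The propyzamide libraries were closer to each other than the vehicle libraries. The highest was at least 2-fold above the lowest in 14 of 32 members (43.8%), against 51.9% of all genes, a share near the background. Replicate 1 was the lowest of the 3 in 29 members, replicate 2 the highest in 15 and replicate 3 in 17. In 4 members the lowest propyzamide library was at least 2-fold above vehicle replicate 2, which is 12.5% against 6.13% of all genes. These were Cnn1, Synm, Synpo2 and Kcnmb1.

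Each member was also set against the median of the 32 tested members in its own library, which was 16.5 and 58.4 CPM in vehicle and 68.8, 92.9 and 112 CPM in propyzamide. On this log2 scale a gene that moves with the set has a difference of 0. Mylk stood 1.28 and 2.41 above the set's median in vehicle and 2.79, 3.85 and 3.12 above it in propyzamide, a difference of 1.41. Myh11, Synm and Actg2 followed with differences of 1.29, 1.22 and 1.20, and in all of these the groups did not overlap. In all, 12 members stood higher in every propyzamide library than in either vehicle library on this scale, 5 stood lower and 15 overlapped. The other higher ones were Synpo2, Cnn1, Tagln, Myl9, Des, Pdlim3, Flna and Acta2. Ppp1r12b, Hspb6 and Lmod1 stood close to 0, with differences of -0.018, 0.0054 and 0.0069. At the other end, Cacna1c was at 0.072 and -1.40 in vehicle and at -2.96, -2.55 and -2.20 in propyzamide. Its difference was -1.91, and those of Kcnma1, Tgfb1i1, Myocd and Ldb3 were -1.42, -1.10, -1.08 and -0.99. In these 5 the groups did not overlap in the opposite direction. The scale is centred on the members' own median, so genes that moved less than it stand lower. The share of all genes was not computed on it. For Cacna1c background was 4.92 and 4.28 CPM in vehicle and 0.266, 3.17 and 1.12 CPM in propyzamide. For Kcnma1 background was 4.52 and 3.93 CPM and 0.245, 2.91 and 1.03 CPM. The part of background in these differences was not tested. The mean of Cacna1c in its higher group was 4.29 times background.

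**Figure D4:**
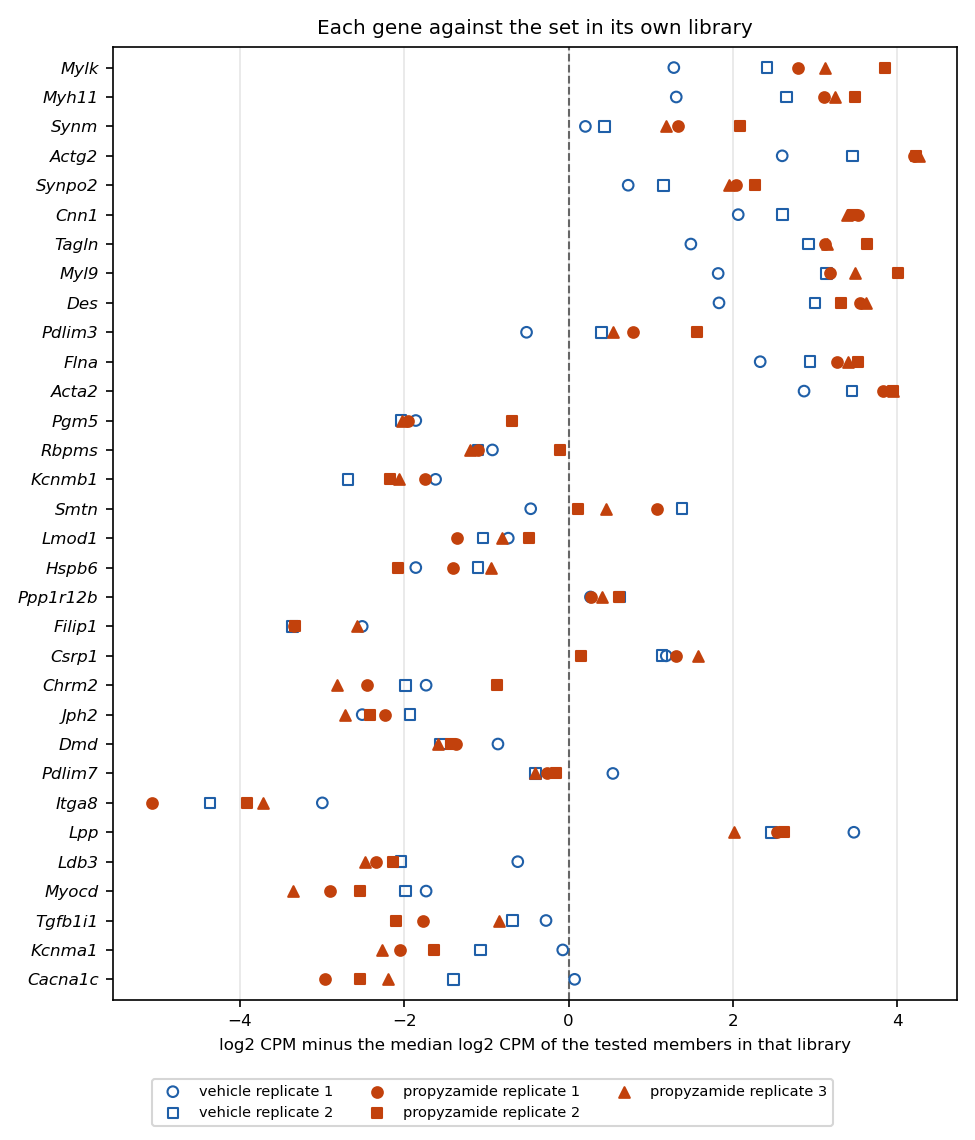
Log2 CPM of each tested member minus the median of the tested members in the same library, for the 5 libraries, with 0 as the set's median. The 12 members at the top, from Mylk to Acta2, stood higher in every propyzamide library than in either vehicle library, 5 (Cacna1c, Kcnma1, Tgfb1i1, Myocd and Ldb3) stood lower and 15 overlapped. Centring on the members' own median places some members above it and others below. The share of all genes was not computed on this scale.

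Across the 32 members, Spearman's rho of the log2 fold change was 0.62 with mean TPM, -0.26 with the length of the longest transcript and 0.58 with the log2 ratio of the vehicle libraries. The ratio of the vehicle libraries had a rho of 0.74 with mean TPM. These values describe genes of the same 5 libraries, which are not independent, and the fold change shares the vehicle libraries with their ratio. Members of higher level thus had the larger differences both between the groups and between the vehicle libraries. Low members carry a larger part of background, which was higher in vehicle, and its part in this was not tested.

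Other genes of the smooth muscle pathway, 48 in a separate list also chosen with earlier results known, followed the members in direction. Of the 45 tested, 42 had positive and 3 negative log2 fold changes, with a median of 1.12. Over all genes tested 49.1% were positive and the median was -0.018. In this list 3 genes passed the test, all higher in propyzamide, against 83 of all 12024 genes called higher. The list's summed level was 1736 and 3472 CPM in vehicle and 5167, 8947 and 7946 CPM in propyzamide. Itgb1, the beta-1 integrin subunit that pairs with Itga8 among others and is made by most cells, was at 62.0 and 64.1 CPM in vehicle and 202, 399 and 354 CPM in propyzamide, and rose by 2.33 ± 0.42 (SE, log2), adjusted p = 0.0210. Pln, phospholamban, which restrains the calcium pump of the store, was at 1.24 and 2.84 CPM and 12.2, 78.0 and 25.6 CPM, and rose by 4.26 ± 0.86 (SE, log2), adjusted p = 0.0324. Ppp1cb, the catalytic subunit of myosin phosphatase, was at 112 and 95.9 CPM and 254, 591 and 358 CPM, and rose by 1.95 ± 0.44 (SE, log2), adjusted p = 0.0478. For Itgb1 and Ppp1cb the vehicle libraries lay close together, where the members' vehicle libraries lay far apart. The next was Mcam, a muscle and vessel-wall adhesion protein, at an adjusted p of 0.0512.

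These calls did not hold without every library. The adjusted p values of Itgb1, Pln and Ppp1cb were 0.212, 0.346 and 0.314 without vehicle replicate 1, and 0.123, 0.163 and 0.237 without vehicle replicate 2. Without propyzamide replicate 3 they were 0.0696, 0.0560 and 0.0993. Without propyzamide replicate 2, Itgb1 kept its call at 0.0345, whereas Pln and Ppp1cb were at 0.0539 and 0.0695. Without propyzamide replicate 1 all 3 passed, at 0.0083, 0.0042 and 0.0249.

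Markers of other cells of the gut wall gave the following sums, and their part in the members' differences was not tested. All 9 smooth muscle markers are members and were detected in every library. Of 6 pericyte and vessel-wall markers, which mark cells that also make Acta2 and Tagln, the sum was 56.2 and 90.8 CPM in vehicle and 211, 632 and 538 CPM in propyzamide. Of the 5 tested, 1 passed: Rgs5, a regulator of G-protein signalling typical of pericytes, at 19.0 and 31.8 CPM in vehicle and 161, 549 and 415 CPM in propyzamide, rose by 3.89 ± 0.58 (SE, log2), adjusted p = 0.0076. Leaving out vehicle replicate 1 gave it an adjusted p of 0.131, and leaving out vehicle replicate 2 gave 0.0506. The sum was carried by Rgs5: the other 5 markers summed to 37.2 and 59.0 CPM in vehicle and 50.3, 83.7 and 123.6 CPM in propyzamide, which overlap. Pdgfrb (7.03 and 8.51 CPM against 5.10, 4.11 and 4.87 CPM) and Notch3 (4.96 and 4.54 CPM against 1.70, 1.54 and 0.609 CPM, not tested) were at lower values in every propyzamide library. The other 4 tested markers, Rgs5, Kcnj8, Abcc9 and Cspg4, had positive log2 fold changes. Kcnj8 was at 5.79 and 4.54 CPM in vehicle and 7.82, 26.7 and 46.3 CPM in propyzamide, without overlap. Its log2 fold change was 2.33 ± 0.70 (SE), adjusted p = 0.101. For Abcc9 and Cspg4 the groups overlapped. Rgs5 did not show the wide gap between the vehicle libraries that Myh11 and Tagln showed. Fibroblast markers (6 of 6 tested, none passed) summed to 421 and 294 CPM in vehicle and 312, 847 and 996 CPM in propyzamide, with vehicle replicate 1 above replicate 2, the reverse of the muscle genes.

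Interstitial cells of Cajal, the pacemaker cells that lie among gut muscle, had 4 markers tested and none passed. They summed to 121 and 127 CPM in vehicle and 56.8, 89.3 and 84.6 CPM in propyzamide, without overlap. That sum was carried by Ano1, at 67.4 and 77.7 CPM in vehicle and 22.1, 40.04 and 23.7 CPM in propyzamide. The other 3 summed to 53.8 and 48.8 CPM in vehicle and 34.7, 49.3 and 60.9 CPM in propyzamide, which overlap. Kit, Etv1 and Gpr20 had log2 fold changes of -0.12, 0.69 and -1.04. Of the 4 markers 3 were negative, with a median of -0.58 over the 4. Enteric neuron and glia markers (7 of 8 tested, none passed) summed to 24.4 and 40.3 CPM in vehicle and 39.4, 53.9 and 50.5 CPM in propyzamide. Epithelial markers (6 of 6 tested, none passed) summed to 4067 and 3570 CPM and 5673, 4949 and 4383 CPM, higher in propyzamide without overlap. Leukocyte markers (5 of 5 tested, none passed) summed to 51.3 and 52.2 CPM and 20.7, 39.0 and 28.0 CPM, lower in propyzamide without overlap. Endothelial markers (3 of 5 tested, none passed) summed to 25.6 and 23.3 CPM and 20.7, 10.3 and 41.4 CPM. Mesothelial markers (4 of 4 tested, none passed) summed to 24.8 and 7.38 CPM and 6.46, 64.2 and 44.4 CPM. Fat markers summed to 7.44 and 13.6 CPM and 30.2, 76.0 and 111 CPM, and 1 of 2 tested passed, Cidec, a lipid-droplet gene, with an adjusted p of 0.0277 that became 0.0599 and 0.141 without vehicle replicates 1 and 2. It was 0.0505 and 0.0713 without propyzamide replicates 2 and 3. The fat markers differed among themselves: Plin1 was at 2.48 and 2.84 CPM in vehicle and 0.340, 0 and 1.22 CPM in propyzamide, and Adipoq was at 0.414 to 3.59 CPM in 4 libraries and at 29.8 CPM in propyzamide replicate 3. Of 7 skeletal muscle markers, 1 and 2 had no count in the vehicle libraries and 4, 5 and 4 in propyzamide. Their sum was 11.6 and 26.7 CPM in vehicle and 20.7, 27.2 and 49.3 CPM in propyzamide, which overlap. Of the 2 tested none passed, and the log2 fold changes were 1.32 for Ckm and -0.27 for Acta1. Ckm was at 4.14 and 18.2 CPM in vehicle and 15.3, 25.7 and 41.4 CPM in propyzamide.

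**Figure D5:**
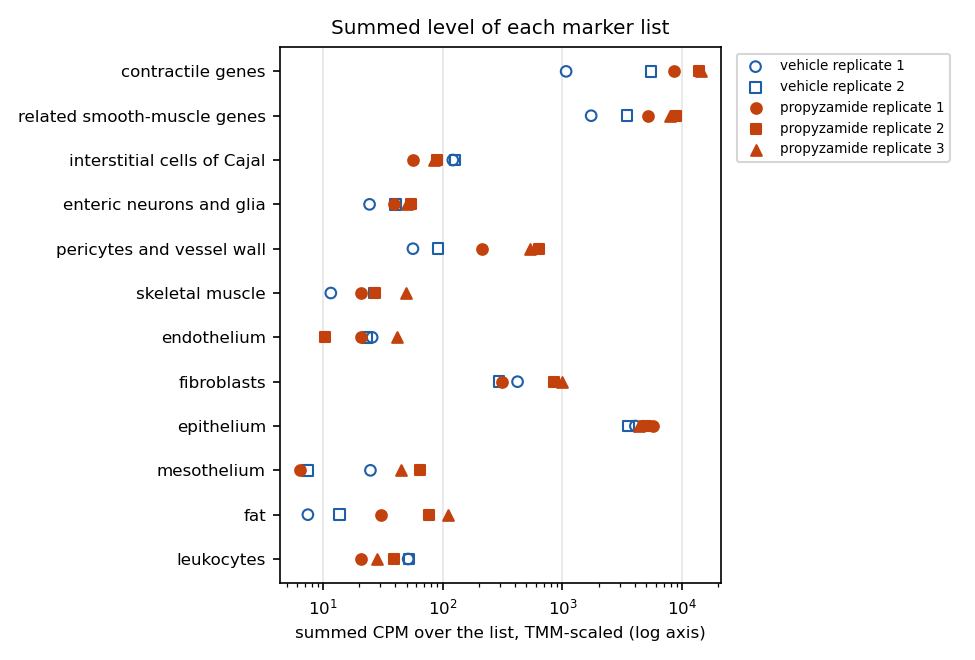
Summed TMM-scaled CPM of the members, of the 48 related smooth-muscle genes and of markers of other cell types in each of the 5 libraries, on a log axis. The members' sum ranged from 1072 CPM in vehicle replicate 1 to 14368 CPM in propyzamide replicate 3. The epithelial sum ranged from 3570 to 5673 CPM and was also higher in every propyzamide library than in either vehicle library.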

How the data were processed

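RNA from pieces of frozen colon was extracted with Trizol and made into libraries by SMART-Seq2, per the labels' protocols. For each library the authors deposited a table of transcripts holding RSEM's estimated count, TPM, FPKM and percent of the gene, per the file headers, and the last 2 went unused. The submitters' processing notes name RSEM, kallisto and GRCm38 with no version. Settings and strandedness went unstated in the sources used here, so a gene and its antisense partner cannot be told apart.

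The deposited estimated counts and TPM of 142647 transcripts were added up within 55471 genes, and the counts were rounded. Symbols were found for 99.6% of the genes in the GENCODE M21 annotation, which gave coordinates. All genes were fitted with edgeR 4.0.16 (R 4.3.3), with filterByExpr, TMM scaling, the quasi-likelihood test over all 5 libraries with the group as its only term, and Benjamini-Hochberg adjustment at 0.05. The SE was taken from the F statistic. The step was tested on simulated data in which 200 genes were changed. It recovered 5.97% of 2-fold, 50.7% of 4-fold and 69.7% of 8-fold changes, and 2.33% of its calls were false. Most 2-fold changes were thus missed, so a count of 0 calls does not show that levels were equal. Each gene was simulated independently, with the spread typical of its level. The members differed together between the vehicle libraries, so these rates may not hold for them. Background came from 1974 olfactory or vomeronasal receptor genes, as counts per kilobase. Intervals are exact, at 95%, and treat reads as independent, although no molecular identifiers were used. No libraries were duplicates (chi-square per degree of freedom 16.0 to 48.1 over genes with at least 10 counts).

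The members, the related genes, the marker lists and the tests were chosen with earlier results of these data known. Every member is named. Values in every sample are given for members with a mean of at least 20 CPM in 1 group and for all regulators, receptors and channels. From the other lists the genes past 0.05 and up to 4 of smallest p could be named. Pdgfrb, Notch3, Kcnj8, Abcc9, Cspg4, Plin1 and Adipoq were named after their values were seen. Alternatives were other scalings and filters, DESeq2 1.42.0, limma 3.58.1 on log2(TPM + 1) and log2(TPM + 0.1), a replicate block, background subtracted, gene classes removed, a threshold of 0.1 and each library left out. Chance lists and set tests were not used.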

Additional observations from a re-analysis of the deposited data

How the results depend on the processing

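With all 5 libraries 0 members passed an adjusted p of 0.05. Shares in brackets are those of all genes called in either direction. The count was also 0 with DESeq2's size factors, upper-quartile scaling, TMM computed without muscle genes, a filter of 10 CPM in 2 samples, limma on log2(TPM + 0.1) and background subtracted. It was 17 with no filter on low counts (3.55%), 8 with DESeq2 (4.70%), 5 with limma on log2(TPM + 1) (4.08%), 1 with rRNA-like and mitochondrial genes removed (3.13%), 1 with protein-coding genes only (2.59%), and 4 at a threshold of 0.1 (5.46%). Leaving out each library in turn gave 0 to 13 calls and a median log2 fold change of 0.95 to 2.69. The other alternatives gave medians of 0.98 to 1.64. With the replicate number as a block, 14 members passed (5.31%); the samples share only a number, with a correlation of deviations of 0.17 for number 1 and 0.15 for number 2, over too few pairs to show pairing. Members at least 2-fold higher in vehicle replicate 2 than in replicate 1 numbered 24 with TMM, 23 per count outside rRNA-like and mitochondrial genes, 16 per total count and 14 in TPM.

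Of 539 single-gene values under an alternative, 463 kept their direction and side of the threshold, 61 passed where they had not, and 15 changed sign. Those 15 were Smtn (-0.21), Myocd (-0.32), Tgfb1i1 (-0.11) and Kcnma1 (-0.29) without vehicle replicate 1; Kcnma1 (-0.14) without propyzamide replicate 2; Tgfb1i1 (-0.25) without propyzamide replicate 3 and (-0.11) with the block; Kcnma1 with upper-quartile scaling (-0.033) and the 10 CPM filter (-0.011); and, with limma at pseudocounts of 1 and 0.1, Ldb3 (-0.13 and -0.14), Itga8 (-0.94 and -1.39) and Kcnma1 (-0.30 and -0.36). Over the libraries left out, Smtn ranged from -0.21 to 3.52, Kcnma1 from -0.29 to 0.61, Myocd from -0.32 to 1.31 and Tgfb1i1 from -0.25 to 1.37. The cause was not tested. The median of all genes was -0.018 with TMM, -0.14 with upper-quartile scaling, and -0.39 and -0.47 with limma. Calls over all genes were 83 higher and 146 lower with TMM and 79 higher and 235 lower with upper-quartile scaling. Of the other genes called, Ppp1cb lost its call with DESeq2's size factors (adjusted p = 0.0501), the 10 CPM filter (0.0597) and background subtracted (0.0800), and with limma at a pseudocount of 1 Itgb1 (0.0996), Ppp1cb (0.209) and Cidec (0.0569) lost their calls. At a pseudocount of 0.1 Itgb1 (0.142), Pln (0.0827), Ppp1cb (0.256) and Cidec (0.112) lost theirs. At this depth, members near background (Chrm3, Itga8 and Cacna1c, within 5 times of it in the higher group's mean) could not be compared with confidence. In vehicle alone, the means of Filip1, Dmd, Kcnmb1 and Chrm2 were also within 5 times of background, at 2.64, 2.78, 4.94 and 4.97 times. With background subtracted the log2 fold changes of Filip1 and Dmd were 1.96 and 1.64.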
